A study of Mus musculus with 11 samples.

Results

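Gene expression was set side by side in haematopoietic stem and progenitor cells of mice labelled Phf6R274X Tg (Tg) and of mice labelled Phf6 knock out (KO), without the wild type as the point of reference. The comparison took 7 of the 11 libraries of the series, 4 Tg and 3 KO, and every gene with at least 1 CPM (counts per gene after scaling all libraries to an equal total) in at least 3 of these 7 libraries. By this rule 13922 of the 55291 gene symbols in the deposited count table were compared. The rule used levels only and no difference between the groups, but a gene near its edge could enter through 1 group: 184 genes lay under 1 CPM in every KO library and 81 in every Tg library. At the edge itself, the third highest CPM was 1.002 for the lowest gene kept (4930568A12Rik) and 0.993 for the highest gene left out (Rn7s2).

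The cells were bone marrow cells without lineage markers and with Kit and Sca-1 at the surface (LSK cells), sorted by flow cytometry. By the labels, each library held the total RNA of 1 mouse. All mice are labelled C57BL/6, Tg and KO alike, and carry no other allele or treatment in the labels. Age, sex and batch, the promoter that drives the transgene, whether the endogenous Phf6 gene is intact in Tg mice, and how and in which cells the knockout was made are absent from the labels and not known here. The 4 wild-type (WT) libraries entered the fit to share its estimate of spread, and their levels are given where they show on which side of WT a group lay.

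The X-linked gene Phf6 encodes a nuclear protein with plant homeodomain-type zinc fingers that binds chromatin and has been found with the NuRD complex and with the transcription machinery of ribosomal RNA. It is mutated in T-cell and myeloid leukaemias, often by loss-of-function changes, and R274X places a stop codon in the coding sequence. LSK cells hold the stem cells and multipotent progenitors of the blood, which carry low levels of lymphoid and myeloid genes before they commit. A direct comparison of Tg with KO addresses whether a mouse that expresses the truncated form and a mouse without the gene have the same transcriptome.

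Libraries held 28943998 to 41301982 counts in Tg and 30418368 to 45632018 in KO, and 3 counts, the upper limit behind a count of 0, came to 0.0657 to 0.104 CPM. The limit covers counting error only. The genotype groups differed in a second respect that the labels do not give. Xist, the RNA made from the inactive X of female cells, lay at 32.7, 39.9 and 40.3 CPM in KO replicates 1, 2 and 3 and at 0.242, 0.297, 0.0345 and 0.0307 CPM in Tg replicates 1 to 4. The summed Y-linked level (Ddx3y, Uty, Kdm5d and Eif2s3y) was 114, 1.74 and 0.0329 CPM in KO and 192, 49.9, 333 and 367 in Tg, so KO replicates 1 and 2 held reads of both kinds, as did WT replicates 1, 2 and 4. Reads of both kinds are not expected from 1 mouse, as these libraries are labelled, and how they arose was not tested. In Tg against KO, genotype and Xist state cannot be told apart. Of 9 tested X-linked genes that escape inactivation, 1 fell, Kdm6a by 0.39 on the log2 scale (adjusted p = 0.0392). The X chromosome had 34 of its 431 tested genes called (7.89%), near the 6.45% of all genes tested. Leaving out the 5 libraries with both kinds of reads leaves KO replicate 3 as the only KO library, and values without them are given where stated.

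The genes that define the sort were present in every library. Kit lay at 609 ± 33.4 CPM (SD, n = 3) in KO and 769 ± 101 (n = 4) in Tg, and Ly6a, which encodes Sca-1, at 32.2 ± 10.03 and 25.1 ± 4.86. None of the 4 markers Kit, Ly6a, Cd34 and Ptprc passed the test (adjusted p = 0.0958, 0.423, 0.936 and 0.827 by edgeR's quasi-likelihood test), while 1 was higher at an unadjusted p under 0.05 and 1 in DESeq2. The 8 markers that a lineage sort removes summed to 25.2 to 48.8 CPM in KO and 11.7 to 25.9 in Tg, with Ly6g at 0 in every Tg library. In bulk RNA of this kind, fewer cells of a type and less of their RNA per cell cannot be told apart. The median Spearman correlation over genes was 0.970 between KO and Tg libraries, against 0.988 within KO and 0.982 within Tg. The first principal component of the 7 libraries held 54.6% of the variance, with Tg at 24.5 to 42.7 and KO at -52.7 to -42.8.

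Of the 13922 genes, 898 passed the test in Tg against KO (6.45% called; edgeR's quasi-likelihood test, Benjamini-Hochberg adjusted p under 0.05). Tg was higher for 462 (3.32%) and lower for 436 (3.13%), and 262 and 184 of these differed by more than 2-fold. Among called genes the median log2 fold change was 1.11 for those higher and -0.79 for those lower, and 0.01 over all genes tested. Tg and KO libraries did not overlap for 893 of the 898, and for 22.1% of all genes tested. Of genes under 1 CPM in every KO library 75 of 184 were called, and of those under 1 CPM in every Tg library 54 of 81, as the rule favours. In the same fit 870 genes (6.25%; 3.4% higher and 2.84% lower) were called in Tg against WT and 4 (0.0287%) in KO against WT; the 3 comparisons share libraries, so these counts are not independent. Counts of calls moved with each library left out: from 119 higher and 120 lower without KO replicate 2 to 543 higher without Tg replicate 3 and 529 lower without WT replicate 3. The range also covered the fits without KO replicate 1 (142 and 144), KO replicate 3 (172 and 160), Tg replicate 1 (240 and 186) and Tg replicate 2 (291 and 264). In all 11 such fits 98 genes kept a call as higher and 90 as lower. Without the 5 libraries that held both Xist and Y-linked reads, 13 genes were called higher and 16 lower.

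**Figure D1:**
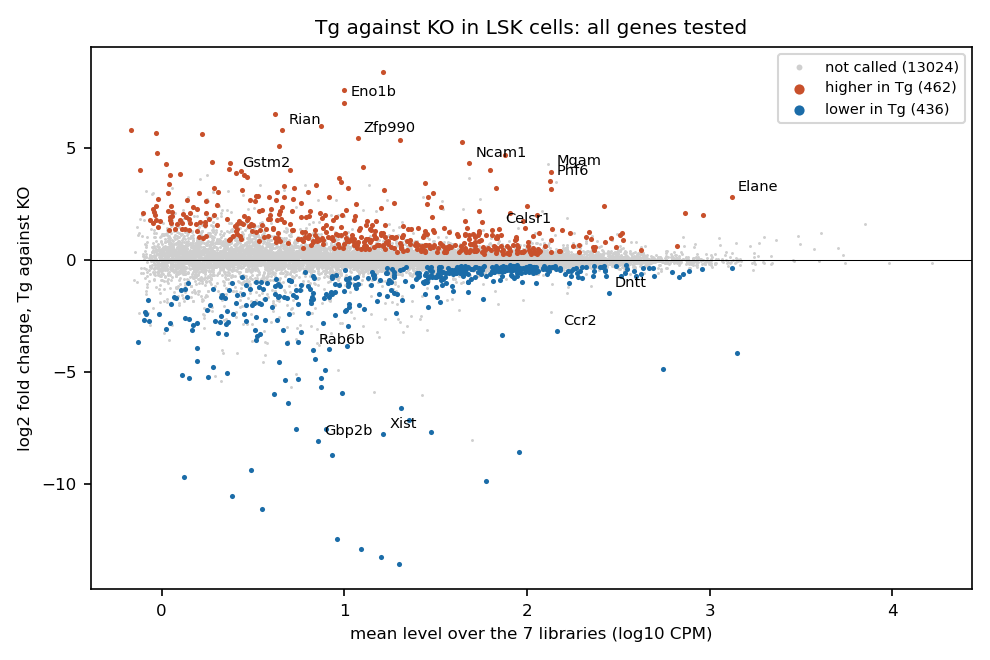
Log2 fold change of Tg against KO (y axis) against the log10 of the mean CPM over the 7 libraries (x axis) for each of the 13922 genes tested. Orange points are the 462 genes called higher, blue points the 436 called lower and grey points genes not called; the lowest points include immunoglobulin genes with hardly any reads in Tg.

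The targeted gene Phf6 (GRCm38, X chromosome, from 52912266 to 52956943 on the plus strand) is given first. KO libraries held 23.9, 18.9 and 15.2 CPM and Tg libraries 181, 180, 240 and 283 CPM. Every Tg library lay above every KO library, and the WT mean of 122 ± 14.4 CPM (SD, n = 4) lay between the groups. The log2 fold change was 3.51 with SE 0.21 (edgeR, adjusted p = 8.17e-06). Reads remained in KO, and counts per gene do not separate transgenic from endogenous transcripts or show where in the gene the reads fall. Celsr1, an atypical cadherin that sets the polarity of cell sheets, followed the same order. It lay at 38.9, 37.3 and 34.8 CPM in KO, 61.3 ± 6.14 in WT and 101, 97.1, 87.9 and 95.6 in Tg, with no overlap between KO and Tg (log2 fold change 1.37, SE 0.09, adjusted p = 1.62e-05). Its own comparisons gave 0.64 for Tg against WT and -0.73 for KO against WT. Chl1, a neural cell adhesion molecule, ran in the other direction, at 3.55, 10.7 and 7.09 CPM in KO and 1.02, 0.61, 0.597 and 0.594 in Tg, where it was near WT (0.647 ± 0.187). Its log2 fold change was -3.32, with SE 0.38 and adjusted p = 0.00101. By library totals, which the rule uses, Chl1 lay under 1 CPM in every Tg library (41, 23, 18 and 19 counts). It entered through KO alone, so the rule favoured its call. Phf6 and Celsr1 kept their calls in each of the 11 fits that left out 1 library, as did Chl1, whose call the rule favoured.

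**Figure D2:**
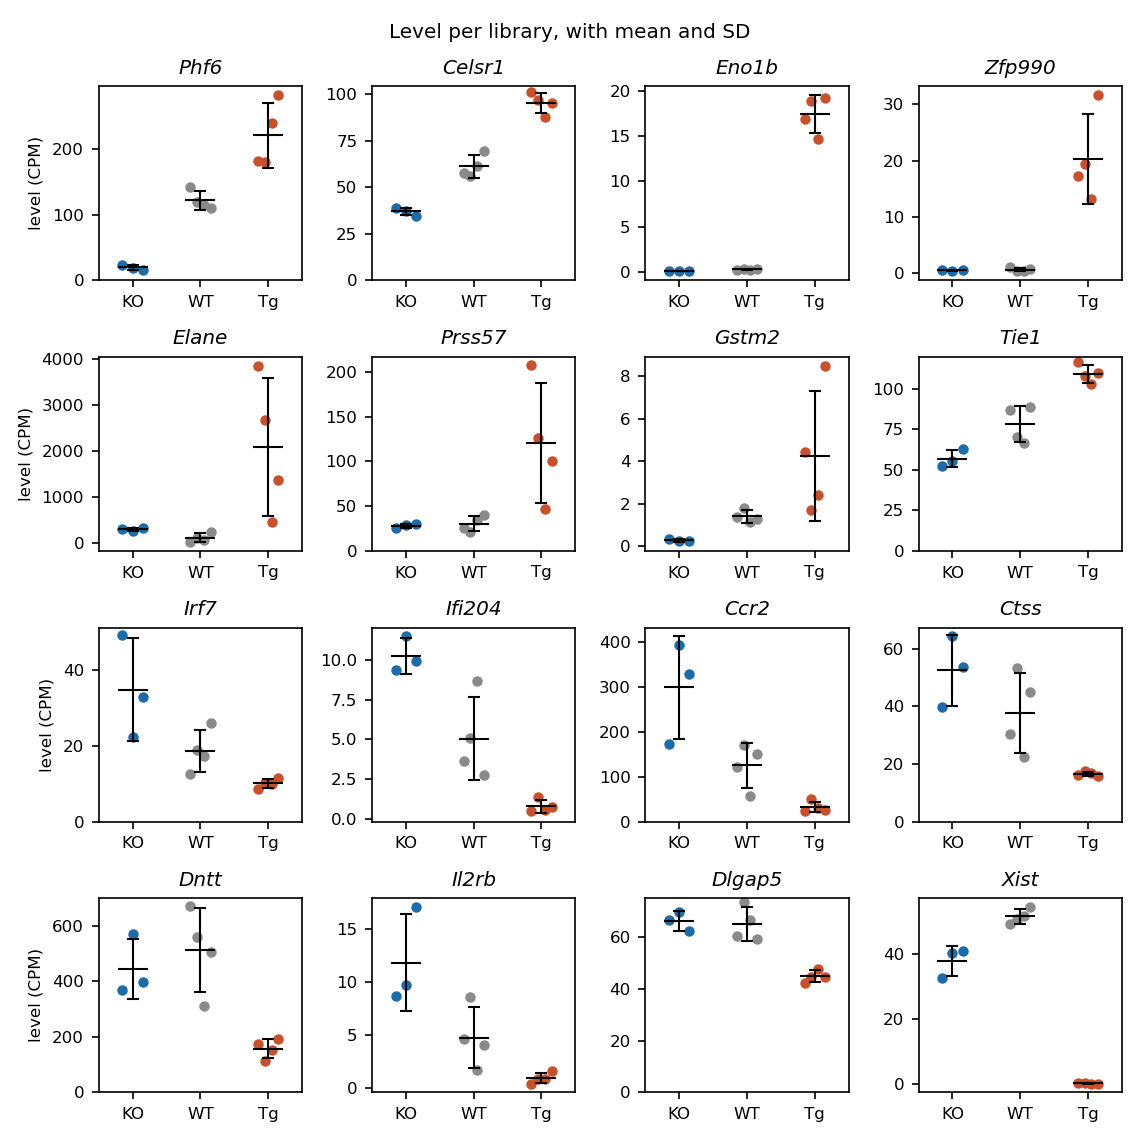
CPM (y axis) of 16 genes in each KO, WT and Tg library; points are libraries, the dash and bar are the group mean and SD. Phf6 and Celsr1 rise from KO through WT to Tg, Elane and Prss57 spread widely among the Tg libraries, and Irf7, Ifi204, Ccr2 and Dntt lie lower in every Tg than in every KO library.

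Among the largest rises were transcripts close to absent outside Tg. Eno1b, which the annotation lists as protein-coding and which resembles the glycolytic enolase gene Eno1, had 4, 5 and 5 counts in KO and 680, 712, 441 and 615 in Tg. In CPM these were 0.0872, 0.151 and 0.166 against 16.9, 18.9, 14.6 and 19.2 (log2 fold change 7.02, SE 0.30, adjusted p = 6.65e-07 by edgeR), with WT at 0.293 ± 0.0800. Zfp990 (chromosome 4, 145510759 to 145539188, plus strand, GRCm38), a member of a large family of zinc finger genes, rose from 0.472 ± 0.0877 CPM (n = 3) to 20.4 ± 8.02 (n = 4). Its Tg libraries held 17.2, 19.5, 13.1 and 31.7 CPM, all far above the KO libraries (log2 fold change 5.43, SE 0.46, adjusted p = 0.000140). The pseudogenes Hmgb1-ps7 (4.02, adjusted p = 0.000103) and Pcna-ps2 (3.67, adjusted p = 0.0141) rose too. Reads of such near-identical copies can be split among genes by the counting, so these 4 are uncertain as single genes. Eno1b, Zfp990 and Hmgb1-ps7 lay under 1 CPM in every KO library and entered through Tg alone, so the rule favoured their calls. Pcna-ps2 lost its call without KO replicate 2 (adjusted p = 0.0645) or KO replicate 3, while the other 3 kept theirs with each library left out.

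Other large rises were genes of membrane proteins and enzymes, and they varied several-fold among the Tg mice. Ncam1, a neural cell adhesion molecule, was at 2.64, 4.10 and 5.49 CPM in KO and 181, 60.0, 26.8 and 58.3 in Tg (log2 fold change 4.33, SE 0.77, adjusted p = 0.00962 by edgeR). Prom1, which encodes the membrane glycoprotein CD133, was at 6.78, 6.03 and 6.92 in KO and 217, 141, 13.1 and 51.1 in Tg (4.00, SE 0.94, adjusted p = 0.0302). Gda, the guanine deaminase, was at 19.7, 23.5 and 29.6 in KO and 391, 223, 78.0 and 181 in Tg (3.17, SE 0.53, adjusted p = 0.00635). Tg replicate 3 was the lowest Tg library for all 3, yet above every KO library. Also higher were Wfdc21, a secreted protein of neutrophil precursors (5.35), the transporter Abca13 (4.68) and the maltase-glucoamylase gene Mgam (3.94). Gda alone among these 6 kept its call with each library left out. Ncam1 lost it without KO replicate 1 or 2 (adjusted p up to 0.0522), Mgam without any 1 KO library (up to 0.0986), Wfdc21 also without Tg replicate 1 (up to 0.114), and Abca13 and Prom1 also without Tg replicates 1 and 2 (up to 0.118 and 0.126).

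Genes of the azurophil granules of granulocyte and monocyte progenitors were higher in Tg. Of the 24 members of the granule and myeloid progenitor list, all tested, 7 rose, 0 fell and 17 did not pass; 23 had a positive fold change and the median was 1.16 on the log2 scale, beside 0.01 for all genes tested and 3.32% of all genes called higher. Elane, the neutrophil elastase, was at 311.5, 254.1 and 329.9 CPM in KO and 3850, 2668, 456.1 and 1365 in Tg (log2 fold change 2.80, SE 0.75, adjusted p = 0.0485 by edgeR). Tg replicate 1 was highest and Tg replicate 3 was nearest to KO. Prss57, a serine protease of the same granules, was at 25.5, 28.4 and 29.8 in KO and 208, 127, 47.1 and 101 in Tg (2.11, SE 0.41, adjusted p = 0.0135). Prtn3 (proteinase 3, 2.00), Ctsg (cathepsin G, 2.09), Ms4a3, a membrane protein of myeloid progenitors (2.39), Nkg7, a protein of cytotoxic and myeloid granules (1.38), and Cebpe, a transcription factor of granule formation (2.53), also rose. Mpo, myeloperoxidase, lay at 3274 ± 465.5 CPM in KO and 9969 ± 5875 in Tg, where replicate 3 (3488) fell among the KO libraries, and did not pass (1.61, adjusted p = 0.0690).

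These myeloid calls moved with the library left out, of KO as of Tg. The mean of the list was 6.48, 6.48 and 6.61 log2 CPM in KO and 8.38, 8.23, 6.604 and 7.61 in Tg, so the groups overlapped at Tg replicate 3. Its count of 7 became 16 without Tg replicate 3, 1 without KO replicate 3, 2 without Tg replicate 1 or 2, and 0 without KO replicate 1 or 2 or without the 5 libraries holding Xist as well as Y-linked reads, while the median stayed between 1.04 and 1.41 with each library left out. Nkg7 lost its call without KO replicate 1 or 2 and Prss57 without any 1 KO library, with adjusted p up to 0.0544 and 0.0654. Elane and Ms4a3 lost theirs in 8 of the 11 fits (up to 0.17, without KO replicate 2), Cebpe in 7 (up to 0.152) and Prtn3 and Ctsg in 5 (up to 0.137 and 0.145). In the same fit the list's median was 1.97 for Tg against WT and 0.78 for KO against WT, so KO lay between WT and Tg by this measure. Genes of later neutrophil granules had 12 of 19 members tested, of which Wfdc21 rose and no other passed (median 1.13). S100a8, an alarmin of mature neutrophils, was at 11.2, 23.2 and 29.4 CPM in KO and 470, 240, 27.9 and 203 in Tg, and did not pass (3.47, adjusted p = 0.0824). Of the myeloid transcription factors, Cebpd rose (1.53, adjusted p = 0.0314, lost in 5 of the 11 fits), while Cebpa (0.50, adjusted p = 0.376) and Gfi1 (0.71, adjusted p = 0.0797) did not pass.

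**Figure D3:**
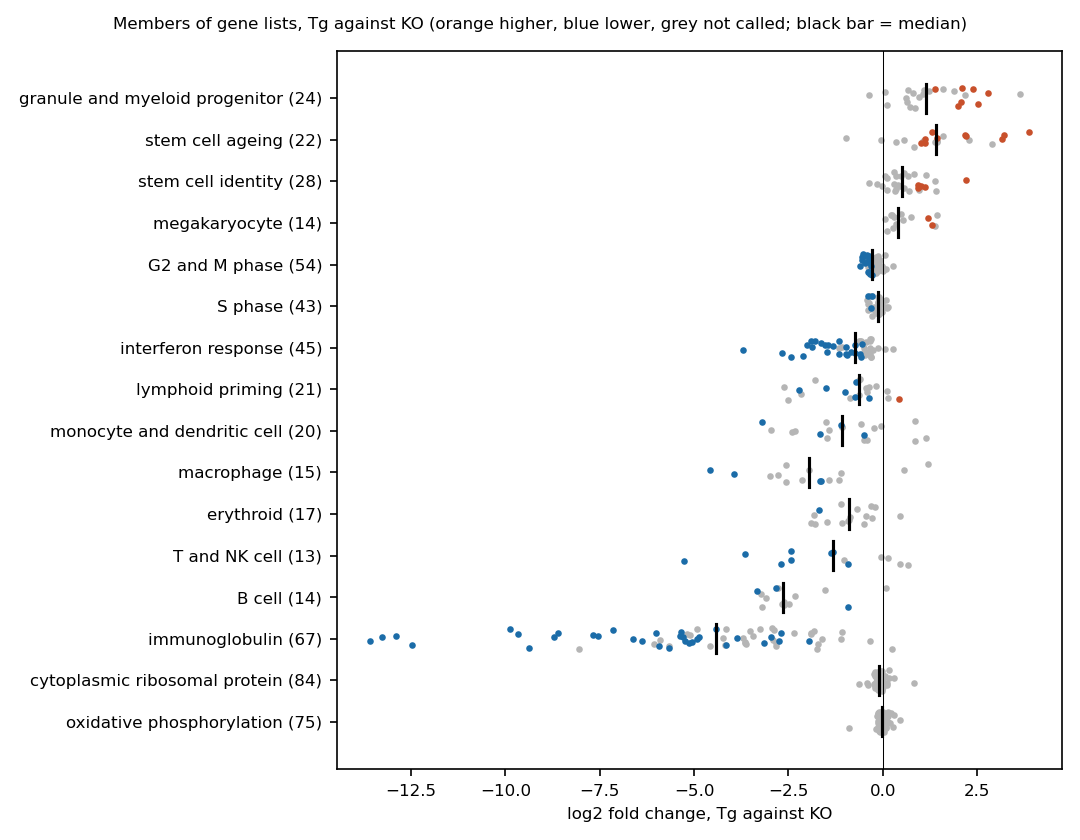
Log2 fold change of Tg against KO (x axis) for the tested members of 16 gene lists (y axis, number tested in brackets); orange members were called higher, blue lower, grey not called, and black bars mark list medians. Stem cell ageing and myeloid granule genes lie mostly right of 0, and interferon, lymphoid, T and NK cell, and immunoglobulin genes mostly left of it.

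Genes that earlier work tied to ageing of stem cells were higher in Tg. Of the 22 tested members of the stem cell ageing list (24 written), 10 rose and 0 fell, 20 had a positive fold change, and the median was 1.41 (3.32% of all genes were called higher). The rule favoured 2 of the calls, of members under 1 CPM in every KO library that entered through Tg alone, 1 of them Gstm2. Gstm2, a glutathione transferase, was at 0.370, 0.241 and 0.233 CPM in KO and 4.45, 1.70, 2.42 and 8.51 in Tg (log2 fold change 3.88, SE 0.57, adjusted p = 0.00382 by edgeR). Clu, the chaperone clusterin, was at 2.11, 1.33 and 2.03 in KO and 10.8, 9.47, 12.4 and 35.3 in Tg (3.21, SE 0.57, adjusted p = 0.00887). Cpne8, a copine, was at 1.497 ± 0.838 in KO and 6.71 ± 2.10 in Tg (2.18, SE 0.41, adjusted p = 0.0125). No Tg library fell among the KO libraries for these 3 genes, and Tg replicate 4 was highest for Gstm2 and Clu. The list mean per library was 2.68, 1.99 and 2.43 log2 CPM in KO and 3.72, 3.33, 3.49 and 4.54 in Tg. WT lay between: the list's median was 0.78 for Tg against WT, with 1 member called higher, and -0.58 for KO against WT. Gstm2, whose call the rule favoured, kept it with each library left out. Clu and Cpne8 lost their calls without KO replicate 2 (adjusted p = 0.0519 and 0.0596). The count of 10 became 2 without KO replicate 2, 4 without KO replicate 3, 5 without Tg replicate 4 and 6 without KO replicate 1 or Tg replicate 1. It was 0 without the 5 libraries holding Xist as well as Y-linked reads, with the median again at 1.41.

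Genes of stem cell identity shifted less. Of 28 tested members 5 rose and 0 fell, with a median of 0.52, beside 3.32% of all genes called higher. Tie1, a receptor tyrosine kinase of stem cells and endothelium, was at 52.5, 55.4 and 62.6 CPM in KO and 116, 108, 103 and 110 in Tg, 2 groups without overlap and with little spread (log2 fold change 0.94, SE 0.11, adjusted p = 0.00105 by edgeR). Esam, an adhesion molecule of stem cells and endothelium, rose by 1.13 (adjusted p = 0.00620), from 17.0 ± 2.09 to 37.2 ± 8.59 CPM. Both kept their calls with each library left out. Procr, the endothelial protein C receptor that marks stem cells (1.03, adjusted p = 0.0398), and the sulfotransferase gene Sult1a1 (2.20, adjusted p = 0.0155) also rose; these lost their calls in 6 and 2 of the 11 fits (adjusted p up to 0.134 and 0.078). The stem cell regulators Hlf (-0.02, adjusted p = 0.974), Mecom (0.32, adjusted p = 0.408) and Meis1 (0.41, adjusted p = 0.0911) did not pass. Without KO replicate 2 or 3, 2 members of the list were called, and 3 without KO replicate 1. Hoxb2 rose (1.54, adjusted p = 0.0291; lost without KO replicate 1 or 2 or Tg replicate 4, up to 0.129), as the only one of 11 tested Hox genes. Jag1, a Notch ligand, rose by 2.16 (adjusted p = 0.0184; lost without KO replicate 2 or 3 or Tg replicate 1, up to 0.0892).

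All 14 tested genes of megakaryocytes and platelets, a lineage whose genes stem cells carry at low level, had a positive fold change (median 0.41), and 2 passed. Over all genes tested, 52.5% had a positive fold change and 3.32% were called higher. Itga2b, the platelet integrin alpha IIb, was at 85.4, 46.5 and 68.8 CPM in KO and 146, 126, 196 and 152 in Tg (1.21, adjusted p = 0.0176 by edgeR), and its partner Itgb3 rose by 1.31 (adjusted p = 0.0411). The call of Itga2b was lost without KO replicate 2 or 3 (up to 0.0786) and that of Itgb3 in 7 of the 11 fits (up to 0.152). Vwf, von Willebrand factor, lay at 45.0 ± 23.5 in KO and 122 ± 74.8 in Tg and did not pass (1.44, adjusted p = 0.154). The list summed to 881 to 1103 CPM in KO and 1164 to 1630 in Tg.

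**Figure D4:**
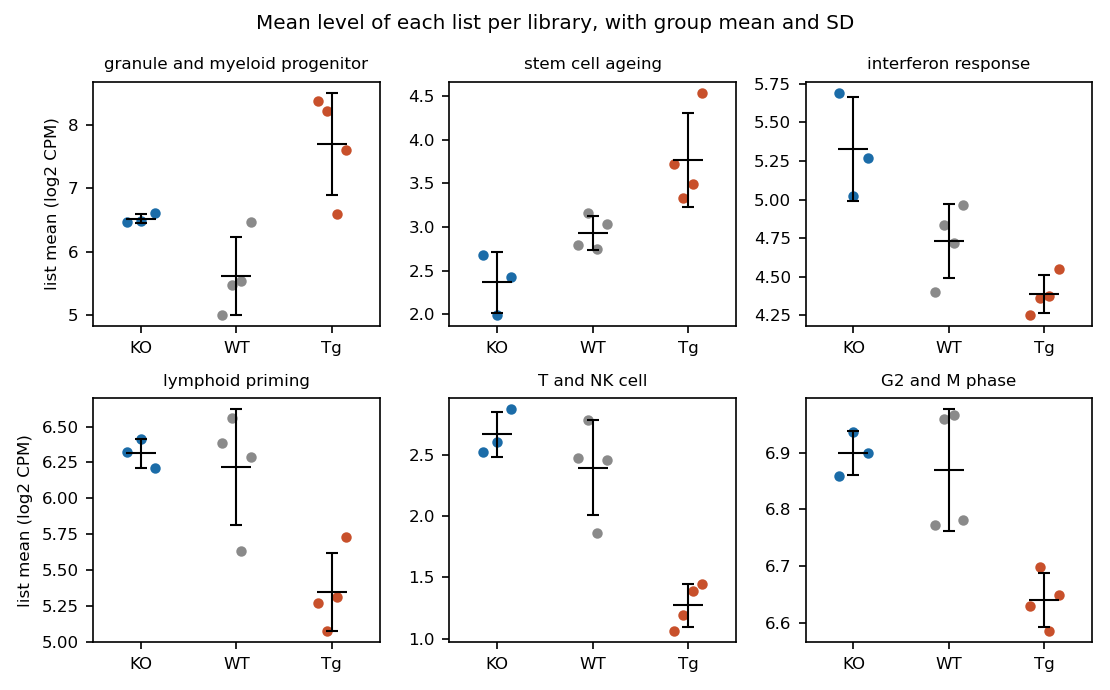
Mean of log2 CPM over the tested members of 6 gene lists (y axis) in each KO, WT and Tg library; points are libraries, dash and bar the group mean and SD. Tg lies apart from KO in 5 lists, while Tg replicate 3 falls among the KO libraries for granule and myeloid progenitor genes.

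Interferon response genes were lower in Tg than in KO. Interferons act through JAK kinases and the transcription factors these activate, which bind the interferon-stimulated response element in the promoters of antiviral genes. Of the 45 tested members of the list, 24 fell and 0 rose, 43 had a negative fold change and the median was -0.73 (3.13% of all genes were called lower; median of all genes 0.01). The promoters of 4 of the members that fell are shown because each holds the core of that element, taken here as GAAA, any 2 bases and GAAA again, and searched on both strands. Capitals mark the matches, which overlap in Isg15 and Oas1a and lie on the opposite strand in Ifit1 and Ifit3. Sequences are from RefSeq (GRCm38.p6), 5′ to 3′ in the direction of the gene, upstream of its start site.
Isg15, chr4:156200850-156200921, minus strand: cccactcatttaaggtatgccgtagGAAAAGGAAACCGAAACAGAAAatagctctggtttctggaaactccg
Oas1a, chr5:120907526-120907570, minus strand: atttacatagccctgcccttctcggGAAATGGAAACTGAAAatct
Ifit1, chr19:34640760-34640838, plus strand: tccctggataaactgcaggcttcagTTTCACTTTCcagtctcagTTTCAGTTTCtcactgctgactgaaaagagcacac
Ifit3, chr19:34583348-34583441, plus strand: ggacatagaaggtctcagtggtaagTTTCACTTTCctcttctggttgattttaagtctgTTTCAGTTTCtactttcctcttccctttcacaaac
The table of promoters matched 9925 of the 13922 genes, with 12657 start sites, and the 250 bases upstream held this motif at 347 of them (2.74%). It was found at 7 of 19 start sites of the members that fell (15 of 24 genes matched) and at 6 of 20 of the members that did not pass. A match describes the letters and not binding.

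Levels of the effectors of the response and of its regulators differed in the same direction. Irf7, the factor that amplifies interferon production, was at 49.1, 22.2 and 32.9 CPM in KO and 8.50, 10.2, 9.95 and 11.6 in Tg (log2 fold change -1.79, SE 0.27, adjusted p = 0.00423 by edgeR). Usp18, a brake on interferon signalling, was at 27.9, 9.41 and 19.2 in KO and 3.58, 4.00, 4.08 and 5.82 in Tg (-2.11, SE 0.34, adjusted p = 0.00579). Dhx58, the RIG-I-like receptor LGP2, was at 44.8, 34.2 and 39.1 in KO and 21.2, 20.4, 19.6 and 18.8 in Tg (-0.98, SE 0.13, adjusted p = 0.00237). KO replicate 1 was highest for all 3 genes and KO replicate 2 lowest, yet no KO library fell to the Tg level. Dhx58 in Tg was near WT (21.9 ± 3.34), while Irf7 in Tg lay below it (18.7 ± 5.51). Xaf1 (-1.48, adjusted p = 0.00407) and Oas1a, an antiviral oligoadenylate synthetase (-0.96, adjusted p = 0.00910), fell as well. The ubiquitin-like modifier gene Isg15 (-1.64, adjusted p = 0.0433) and the antiviral effectors Ifit1 (-2.01, adjusted p = 0.0184) and Ifit3 (-2.43, adjusted p = 0.0309) fell with KO replicate 1 again highest, at 12.1, 39.1 and 8.35 CPM against 4.85, 9.62 and 1.90 in KO replicate 2. Genes of class I antigen presentation, another interferon target group, had 0 of 19 tested members called in edgeR (median -0.20); at an unadjusted p under 0.05, 5 were lower and 1 higher, and in DESeq2 2 and 1.

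The interferon calls moved with the library left out. The list mean was 5.69, 5.02 and 5.27 log2 CPM in KO and 4.25, 4.36, 4.37 and 4.55 in Tg, which did not overlap. Without KO replicate 1 the log2 fold change of Ifit1 moved to -1.22 and the median of the list to -0.60. In that fit calls lower over all genes fell from 436 to 144, and the list's count from 24 to 9. It was 10 without Tg replicate 1, 13 without KO replicate 3 and 15 without Tg replicate 2; without the 5 libraries holding Xist as well as Y-linked reads 1 member was called and the median was -0.60. Irf7, Usp18, Dhx58, Xaf1 and Oas1a kept their calls with each library left out. Ifit1 lost its call without KO replicate 1 or Tg replicate 1 (adjusted p up to 0.0733), Ifit3 in 5 of the 11 fits (up to 0.146) and Isg15 in 7 (up to 0.197). In the same fit the list's median was -0.30 for Tg against WT, with 3 members called lower, and 0.45 for KO against WT, so WT lay between Tg and KO.

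Several genes of families that sense nucleic acids or respond to interferon, outside that list or the lowest in it, fell too. Ifi204, a PYHIN family DNA sensor, was at 9.35, 11.5 and 9.92 CPM in KO and 0.497, 1.38, 0.531 and 0.719 in Tg (-3.70, SE 0.43, adjusted p = 0.00105 by edgeR). Phf11d and Phf11b, which encode plant homeodomain proteins and neighbour each other on chromosome 14, fell (log2 fold changes -2.84 and -1.5005, adjusted p = 0.000250 and 0.00152 by edgeR). Phf11d was at 19.9, 11.5 and 13.9 in KO and 1.61, 2.15, 1.99 and 2.69 in Tg. Phf11b was at 11.3, 9.32 and 11.5 in KO and 3.73, 3.55, 2.85 and 5.005 in Tg. These 3 kept their calls with each library left out. Ifi206, also of the PYHIN family, was at 18.1, 4.01 and 13.4 in KO and 1.89, 0.239, 0.597 and 2.41 in Tg (-3.20, adjusted p = 0.0321), a call lost in 5 of the 11 fits (up to 0.114). Gbp2b, an interferon-induced GTPase, had 1438, 367 and 235 counts in KO and 0, 0, 0 and 8 in Tg (adjusted p = 0.0418, up to 0.113 with a library left out). Gbp2b lay under 1 CPM in every Tg library and entered through KO alone, so the rule favoured its call. It also differed within WT, at 0, 916, 0 and 216 counts, so its state was not uniform among mice of 1 genotype.

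Chemokine receptors, a set chosen after its values were seen, were lower as well. Of 11 tested receptors 5 fell and 0 rose, beside 3.13% of all genes called lower. Ccr2, the receptor that guides monocytes and their progenitors, was at 172, 393 and 329 CPM in KO and 23.8, 49.8, 31.3 and 25.5 in Tg (log2 fold change -3.19, SE 0.39, adjusted p = 0.00138 by edgeR), with WT at 125 ± 49.5. The groups were far apart. Ccr1 (-2.47, adjusted p = 0.0357), Cx3cr1 (-1.11, adjusted p = 0.0498) and Cxcr3 (-3.13, adjusted p = 0.0398) fell too. Cxcr3 lay under 1 CPM in every Tg library and entered through KO alone, so the rule favoured its call. Cxcr4, the receptor that holds stem cells in the marrow, did not pass (0.14, adjusted p = 0.762). Ccr2 kept its call with each library left out. Cxcr3 lost its call in 4 of the 11 fits (up to 0.107), Ccr1 in 6 (up to 0.127) and Cx3cr1 in 9 (up to 0.153).

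Of 20 tested monocyte and dendritic cell genes 4 fell, 0 rose and 16 did not pass (median -1.08), beside 3.13% of all genes called lower. Ccr2 and Cx3cr1, given above, are members, and Ctss and Tcf4 were the others that fell. The list summed to 1469 to 1984 CPM in KO and 922 to 1590 in Tg. Ctss, the lysosomal protease cathepsin S, was at 39.8, 64.3 and 53.7 in KO and 16.3, 17.5, 16.9 and 15.8 in Tg (-1.66, SE 0.25, adjusted p = 0.00455 by edgeR). Irf8, a factor of monocyte and dendritic cell fate (-1.09, adjusted p = 0.0612), and Csf1r, the receptor for macrophage colony-stimulating factor (-0.58, adjusted p = 0.336), did not pass. Without any 1 KO library or without Tg replicate 1 or 2 the list had 2 calls. Of 15 tested macrophage genes 4 fell (median -1.94): Spic, Cd5l, Fcna and Cd163. The rule favoured 3 of these calls, since Spic, Cd5l and Fcna lay under 1 CPM in every Tg library and entered through KO alone. Of the other 12 members, 1 fell and the median was -1.79. Spic, a factor of red pulp macrophages, was at 1.55, 3.05 and 2.23 in KO and 0.820, 0.663, 0.597 and 0.751 in Tg (-1.67, adjusted p = 0.00894). As the rule favoured this call, its test does not support a difference of the group. The macrophage list summed to 64.1 to 251 CPM in KO and 39.9 to 187 in Tg, so the sums overlapped, and its calls went to 0 without KO replicate 2 or 3 and to 7 without Tg replicate 2. Whether carried-over mature cells had a part in these differences was not tested.

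Genes of lymphoid priming were lower in Tg. Of 21 tested members 6 fell, 1 (Dach1) rose and 14 did not pass, with a median of -0.64, beside 3.13% of all genes called lower. Dntt, the terminal transferase of lymphoid progenitors, was at 369, 569 and 398 CPM in KO and 173, 113, 152 and 192 in Tg (log2 fold change -1.4998, SE 0.25, adjusted p = 0.00662 by edgeR). Notch1, the receptor that drives T cell fate, was at 282, 343 and 257 in KO and 193, 156, 172 and 200 in Tg (-0.71, SE 0.12, adjusted p = 0.00620). Lsp1, a leukocyte actin-binding protein, was at 124, 147 and 125 in KO and 55.3, 75.2, 73.2 and 60.7 in Tg (-0.996, SE 0.14, adjusted p = 0.00265). In each of these 3 the groups did not overlap, and each kept its call with each library left out. Il7r, the interleukin-7 receptor of lymphoid progenitors (-2.21, adjusted p = 0.0464), and Ikzf1, which encodes Ikaros (-0.37, adjusted p = 0.0174), also fell, with the calls lost in 8 and 3 of the 11 fits (up to 0.133 and 0.0956). Flt3, a receptor of multipotent progenitors, lay at 461 ± 124 in KO and 296 ± 50.6 in Tg and did not pass (-0.64, adjusted p = 0.0924). The count of 6 became 3 without KO replicate 2 or 3 or Tg replicate 1, 10 without Tg replicate 4 and 0 without the 5 libraries holding Xist as well as Y-linked reads. Dach1 was not called without any 1 KO or Tg library or without WT replicate 2, 3 or 4. KO lay near WT by this list: its median was -0.01 for KO against WT and -0.61 for Tg against WT, where 7 members were called lower and 0 higher.

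Genes of mature or committed lymphoid cells mostly showed the same direction, with larger folds. Of 13 tested T and NK cell genes (22 written) 8 fell and 0 rose, with a median of -1.32, beside 3.13% of all genes called lower. A positive fold change was seen in 3, of which 1 was higher at an unadjusted p under 0.05 by edgeR. In DESeq2 1 member was called higher. Of these 13, 2 lay under 1 CPM in every Tg library and both were called, and of the other 11, 6 fell with a median of -1.03. Il2rb, the interleukin-2 receptor beta chain, was at 8.67, 9.74 and 17.1 CPM in KO and 0.422, 0.849, 0.896 and 1.60 in Tg (-3.66, SE 0.54, adjusted p = 0.00391 by edgeR). Ncr1, a receptor of NK cells, was at 2.59, 2.68 and 4.26 in KO and 0.0248, 0.106, 0.166 and 0.0313 in Tg (-5.25, SE 0.72, adjusted p = 0.00258). It is 1 of the 2 members under 1 CPM in every Tg library and passed through KO alone, so its test does not support a difference of the group. The protease gene Gzmb (-2.43, adjusted p = 0.00423) and Tcf7, a T cell factor that progenitors also express (-1.36, adjusted p = 0.00400), fell too. Il2rb, Gzmb and Tcf7 kept their calls with each library left out, as did Ncr1, whose call the rule favoured. The count of 8 went to 3 without KO replicate 2, 4 without KO replicate 1 or 3 and 5 without Tg replicate 1. The T and NK list summed to 110 to 127 CPM in KO and 60.3 to 95.2 in Tg. The T cell genes Cd3e, Cd3d and Cd3g did not meet the rule. They reached at most 1.15, 0.959 and 1.15 CPM in KO and 0.242, 0.315 and 0.0726 in Tg. Ikzf3, which encodes Aiolos, fell by 2.76 (adjusted p = 0.0226), lost without KO replicate 2 or 3 or Tg replicate 1 (up to 0.078).

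B cell genes were lower too. Of 14 tested members 3 fell (Jchain, Cd22 and Cd79b), with a median of -2.64, beside 3.13% of all genes called lower. Without any 1 KO library or Tg replicate 1, 1 member fell. The median was -1.14 with 1 surrogate variable and -4.23 with the Y-linked level as a covariate. Of the calls, 1 was of a member under 1 CPM in every Tg library. The list summed to 700 to 986 CPM in KO and 375 to 722 in Tg. Jchain, the joining chain of secreted antibodies that some progenitors also express, was at 140, 141 and 173 in KO and 9.41, 6.82, 24.98 and 18.9 in Tg (-3.34, SE 0.61, adjusted p = 0.0104 by edgeR), a call kept with each library left out. Immunoglobulin genes took 0.287%, 1.24% and 0.406% of all counts in KO and 0.0284%, 0.0225%, 0.0344% and 0.0378% in Tg. Of 67 tested immunoglobulin genes 33 fell and 0 rose, with a median of -4.41. The rule favours both values: 25 of the 67 lay under 1 CPM in every Tg library and passed through KO alone, and 21 of these were called, so neither value supports a difference of the group. Of the other 42, 12 fell and the median was -3.47. The median over all 67 is the same with the 6 genes of 3 or fewer Tg counts set to the limit of 3 counts over the group. Ighm, the constant region of IgM, was at 1014, 5972 and 2224.5 CPM in KO and 194.4, 158, 150.0 and 191 in Tg (-4.15, adjusted p = 0.0158; 0.0689 without KO replicate 2). The 2 with the lowest p were variable segments, and both kept their calls with each library left out: Igkv4-91 had 194, 266 and 285 counts in KO and 1, 0, 0 and 0 in Tg (adjusted p = 0.000233), and Igkv9-120 had 547, 1299 and 252 against 0, 0, 5 and 1 (adjusted p = 0.00932). Both lay under 1 CPM in every Tg library and passed through KO alone, so their tests do not support a difference of the group either. With fewer KO libraries fewer immunoglobulin genes met the rule: 3 of 33 tested were called without KO replicate 2, 6 of 40 without KO replicate 3 and 7 of 36 without KO replicate 1. The calls numbered 13 of 66 without Tg replicate 1 and 16 of 66 without Tg replicate 2. Reads of similar segments can be split among genes by the counting. WT libraries ranged from 0.0757% to 1.03% of counts. Whether B cells or plasma cells carried through the sort had a part was not tested.

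Genes of the G2 and M phases of the cell cycle were slightly lower in Tg. Of 54 tested members 15 fell and 0 rose, beside 3.13% of all genes called lower. A negative fold change was seen in 49, and the median was -0.27. The promoters of 3 of the members that fell are shown. They hold, close to the start site, the cell cycle genes homology region, TTTGAA, an element that represses such genes outside division. Both strands were searched, and capitals mark the match, here in each case on the opposite strand (RefSeq, GRCm38.p6, 5′ to 3′ in the direction of the gene, upstream of its start site).
Top2a, chr11:99024190-99024252, minus strand: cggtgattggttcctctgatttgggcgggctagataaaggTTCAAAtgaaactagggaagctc
Ckap2l, chr2:129297213-129297267, minus strand: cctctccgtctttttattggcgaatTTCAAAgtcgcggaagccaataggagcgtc
Kif11, chr19:37376338-37376381, plus strand: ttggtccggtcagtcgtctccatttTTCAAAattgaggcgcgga
The motif was found in the 250 bases upstream of 1391 of 12657 start sites (11%), at 8 of 13 start sites of the members that fell (12 of 15 genes matched) and at 13 of 39 of the members that did not pass.

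The folds of these genes were small and the libraries tight. Dlgap5, a spindle protein, was at 66.4, 69.8 and 62.3 CPM in KO and 42.5, 44.4, 47.9 and 44.8 in Tg (-0.56, SE 0.08, adjusted p = 0.00441 by edgeR). Nusap1, a microtubule-binding protein, was at 142, 145 and 128 in KO and 93.5, 92.6, 97.1 and 105 in Tg (-0.51, SE 0.08, adjusted p = 0.00455). Ndc80, of the kinetochore (-0.60, adjusted p = 0.00591), and Kif2c, a microtubule depolymerase (-0.48, adjusted p = 0.00829), fell as well, and these 4 kept their calls with each library left out. Top2a, topoisomerase II alpha, fell from 1059 ± 5.84 to 803.5 ± 42.1 CPM (-0.40, adjusted p = 0.0258; lost in 5 of the 11 fits, up to 0.105). Ckap2l, of the spindle (-0.31), and the motor gene Kif11 (-0.33) fell too and lost their calls without KO replicate 2 or 3, Kif11 also without Tg replicate 1 (up to 0.0824 and 0.0832). Mki67, the antigen Ki-67, did not pass (-0.13, adjusted p = 0.656), with overlapping libraries. The count of 15 became 4 without KO replicate 2 or 3, 5 without Tg replicate 1, 7 without KO replicate 1 and 0 without the 5 libraries holding Xist as well as Y-linked reads, where the median was -0.28. KO and WT were level in these genes (median 0.03 for KO against WT, -0.24 for Tg against WT). Of 43 tested S phase genes 3 fell, Clspn (-0.38), Slbp (-0.30) and Pcna (-0.29), with a median of -0.12, beside 3.13% of all genes called lower. The abundant histone gene H4f16 fell from 241 ± 34.1 to 118 ± 15.6 CPM (-1.02, adjusted p = 0.000901) and kept its call with each library left out.

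Further falls stood outside these groups. Rab6b, a small GTPase of vesicle transport, was at 15.2, 14.2 and 14.1 CPM in KO, 17.3 ± 2.93 in WT and 0.720, 0.424, 1.26 and 1.16 in Tg (-4.04, SE 0.30, adjusted p = 3.77e-05 by edgeR), a difference kept with each library left out. Among abundant genes Gimap6, a GTPase of lymphocyte survival (-1.02, adjusted p = 0.0314), and the kinase gene Stk17b (-0.83, adjusted p = 0.0182) fell, with calls lost in 5 and 3 of the 11 fits (up to 0.140 and 0.0825). Hbb-bt, a beta globin (-1.68, adjusted p = 0.0297, lost in 5 fits), was the only one of 17 tested erythroid genes called. Of the 17, 16 had a negative fold change, the median was -0.90 and the list means of the groups did not overlap, while the list summed to 658 to 754 CPM in KO and 427 to 762 in Tg.

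Calls among genes of chromatin complexes and receptors are read beside the 3.13% of all genes called lower and the 3.32% called higher. Of 14 tested NuRD genes 3 fell, the deacetylase gene Hdac1 (-0.42, adjusted p = 0.0365 by edgeR), Mbd2 (-0.30) and Mta3 (-0.37), with a list median of -0.09. In 6 of the 14 every Tg library lay below every KO library, as in 11.5% of all genes tested. The list means of the groups did not overlap, and without any 1 KO library none was called. Among 27 tested Polycomb genes Ezh2, the histone H3 lysine methyltransferase, fell from 202 ± 5.56 to 142 ± 14.3 CPM (-0.51, adjusted p = 0.0154, up to 0.0599 without KO replicate 3), together with Phc2 and Cbx2 (median -0.11), and without any 1 KO library none was called. Of 26 tested cytokine receptors 5 fell, among them Tgfbr2 (-0.52), Ifnar1, a chain of the type I interferon receptor (-0.31), Il6st (-0.35), Il1rl1 (-0.71) and Il7r, and without KO replicate 1 or 2 none was called. Of 19 tested p53 targets 2 rose, Perp (1.88) and Zmat3 (0.72), and the median was -0.03; none was called without KO replicate 1 or 3. None of the 84 tested cytoplasmic ribosomal protein genes (median -0.10), the 75 of oxidative phosphorylation (-0.02), the 22 of glycolysis (0.23), the 17 of RNA polymerase I and PAF1 partners (0.08), the 20 of the TNF and NF-kB response (-0.13) or the 16 immediate early genes (0.69) was called by edgeR. At an unadjusted p under 0.05 these lists had 4, 1, 6, 3, 5 and 4 genes in this order, and in DESeq2 1, 0, 3, 1, 3 and 0. Junb, an immediate early factor, ran from 460 to 1542 CPM among Tg libraries and overlapped KO (419 to 490; adjusted p = 0.162).

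Some called genes lay side by side, a pattern noticed after the values were seen. Runs of at least 3 consecutive tested genes called in 1 direction numbered 11, of which 4 held immunoglobulin genes alone. The imprinted cluster of chromosome 12 was higher in Tg: Dlk1, which encodes a Notch-related membrane protein (109452823 to 109463336, GRCm38), and the noncoding RNAs Meg3 (109541001 to 109571726) and Rian (109603940 to 109661716). Rian had 5, 8 and 2 counts in KO and 385, 290, 232 and 214 in Tg (log2 fold change 5.80, SE 0.45, adjusted p = 6.39e-05 by edgeR). Meg3 was at 0.283, 0.241 and 0.166 CPM in KO and 2.41, 5.17, 4.51 and 3.63 in Tg (4.05, SE 0.50, adjusted p = 0.00138). Rian and Meg3 lay under 1 CPM in every KO library and entered through Tg alone, so the rule favoured their calls. Dlk1 rose by 2.84 (adjusted p = 0.00989; 0.0508 without KO replicate 2), and WT lay at 0.650 ± 0.186 CPM for Dlk1, 0.335 ± 0.236 for Meg3 and 0.444 ± 0.178 for Rian. Further runs held Rcbtb1, Phf11b and Phf11d, as above, with Rasal1, Oas2 and Oas3 (chromosome 5) and Il6st, Il31ra and Ddx4 (chromosome 13) lower, and Arhgap29, Abca4 and Gclm (chromosome 3) and Dcaf12l1, Ocrl and Apln (X chromosome) higher. The fold changes within a run differed, from -0.44 for Rcbtb1 to -2.84 for Phf11d.

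**Figure D5:**
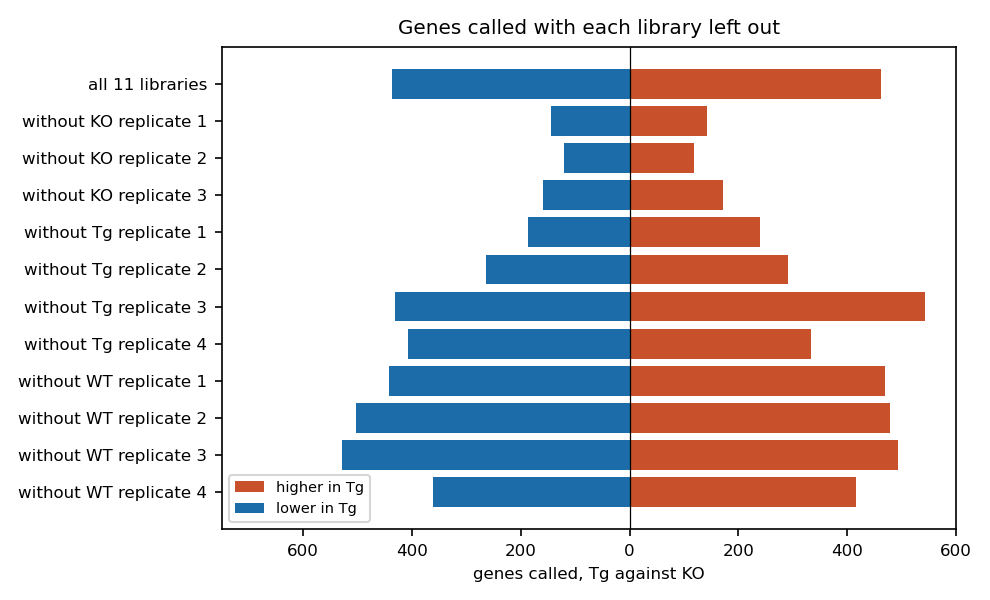
Number of genes called higher (orange, right) and lower (blue, left) in Tg against KO (x axis) in the fit of all 11 libraries and in each fit with 1 library left out (y axis). Counts are lowest without a KO library, at 119 to 172 higher and 120 to 160 lower.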

How the data were processed

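RNA-seq libraries of sorted LSK cells of individual mice (4 WT, 3 KO, 4 Tg) were used as raw counts per gene symbol, which the authors deposited in 1 table for the series. Per the submitters' processing notes, mm10 was the build and STAR, HTSeq, Trimmomatic and FastQC were used; versions, annotation, strand setting and read filters: not given in the sources used here. Groups came from the labels.

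Genes with at least 1 CPM in at least 3 of the 7 Tg and KO libraries were fitted with edgeR 4.0.16 (R 4.3.3; TMM factors, glmQLFit, glmQLFTest) in all 11 libraries, with the contrast Tg minus KO. Benjamini-Hochberg adjusted p-values cover all 13922 genes, at a threshold of 0.05. They measure the spread between libraries, each labelled as 1 mouse. CPM of single genes and list means use TMM factors; the rule, the Xist and Y-linked levels, list sums and the limits of 3 counts use library totals. Total counts ran from 28943998 to 45632018 in the 7 libraries. On simulated counts for Tg against KO in 13707 genes, 47.8%, 86.6% and 98.5% of 1.5-, 2- and 4-fold changes were recovered. Alternatives used DESeq2 1.42.0, limma 3.58.1, sva 3.50.0, other factors, filters, sample sets and a replicate block. Figures used Python 3.11.15 and matplotlib 3.10.9.

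Named genes were Phf6, the 10 strongest rises and falls of called genes averaging 5 CPM or more without overlap (no predicted models or immunoglobulin genes), the 5 strongest each averaging 100 CPM or more, up to 4 members per list with the lowest p, the 2 immunoglobulin genes with the lowest p, and Xist and the Y-linked genes. Genes outside this rule were chosen after their values were seen: Celsr1, Chl1, the chemokine receptors Cxcr3 and Cxcr4, Phf11b, Ighm, Kdm6a, members of the neighbouring runs, and further list members such as Mpo, Cebpe, Procr, Isg15, Usp18, Top2a and Flt3. A few genes are not reported here. The genes, lists and tests were chosen with earlier results of these data known. Coordinates and gene types are from GENCODE M21 (GRCm38). Reads of overlapping genes and of antisense partners may not be separated by the counting.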

Additional observations from a re-analysis of the deposited data

Results flagged for a closer look

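In 21 of 316 groups of 4 libraries tested, 1 library stood farther from the nearest other than Dixon's 95% critical value for the group's range allows. Chance flags about 1 in 20 groups. Values of genes are CPM.

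In Tg, replicate 1 stood apart for Chl1 (1.02, the others 0.594 to 0.61), Ccr1 (6.86, the others 1.44 to 1.86) and Igkv4-91 (0.0248, the others 0). Tg replicate 4 was high for Clu (35.3, the others 9.47 to 12.4), Ifit3 (1.72, the others 0.498 to 0.646), Cxcr3 (0.782, the others 0.166 to 0.212) and Gbp2b (0.250, the others 0), and low for Cd34 (560.1, the others 815.5 to 857.9). Among list means in log2 CPM, Tg replicate 3 was low for late neutrophil genes (2.56, the others 4.01 to 4.18). Tg replicate 4 was high for class II antigen presentation (4.82, the others 3.97 to 4.11) and the Notch pathway (5.17, the others 4.89 to 4.94), and low for S phase genes (6.67, the others 6.75 to 6.76).

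In WT, replicate 1 was low for Usp18 (4.47, the others 8.13 to 8.36) and Ifit3 (0.543, the others 1.49 to 1.57). WT replicate 2 was high for Vwf (151.5, the others 49.0 to 57.8), Cd79b (53.5, the others 32.1 to 34.96) and Tgfbr2 (142.6, the others 107.5 to 112.2). WT replicate 4 was high for Wfdc21 (1.25, the others 0 to 0.157), Phf11b (9.52, the others 7.86 to 8.14) and Junb (718.5, the others 260.9 to 337.4), and low for Kif11 (278.4, the others 304.6 to 305.0).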

How the results depend on the processing

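None of the 898 called genes changed sign in any alternative that tested it. Values near 0 did: the medians of the TNF and NF-kB response (0.10 with 1 surrogate variable), oxidative phosphorylation (0.16 with the Y-linked covariate), p53 targets (0.07) and cytokine receptors (0.05, both without the 5 libraries holding Xist as well as Y-linked reads), and Cxcr4 (-0.17 with the Y-linked covariate). Against 462 genes higher and 436 lower, a test against a 1.2-fold change gave 215 and 161, a fit with replicate block 135 and 152, DESeq2 926 and 818, and the fit without the 5 libraries holding Xist as well as Y-linked reads, added after seeing the data, 13 and 16. The Y-linked level as a covariate gave 232 and 304, and no filter on low counts 438 and 555. Leaving out 1 library at a time gave 119 to 543 higher and 120 to 529 lower.

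The replicate numbers did not pair the samples: deviations of same-numbered KO and Tg libraries correlated at -0.31, 0.11 and -0.32. Of the 106 named genes called, 48 kept the call under the block.

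The immunoglobulin median of -4.41 became -5.97 with the Y-linked covariate, -3.25 with 1 surrogate variable and -2.07 without the 5 libraries, and ran from -5.13 to -2.78 with 1 library left out. The T and NK cell median of -1.32 became -1.03 at a minimum of 2 CPM, -0.90 with the surrogate variable and -0.59 without the 5 libraries, and ran from -1.47 to -0.98 with 1 library left out. The G2 and M phase median was -0.21 with the Y-linked covariate. The causes were not tested. With 3 KO libraries, and Xist state differing between the groups, the calls measure these libraries.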
